A study of Oryza sativa with 12 samples.

Results

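The transcripts described here carry the KEGG term for ion channels (ko04040) in the annotation deposited with the expression table of rice roots. The term was held by 62 of 42081 transcripts, which belonged to 50 loci. Their KEGG descriptions and annotations divided them into 25 tonoplast intrinsic proteins (TIPs), 14 plasma membrane intrinsic proteins (PIPs), 13 NOD26-like intrinsic proteins (NIPs), 4 small basic intrinsic proteins (SIPs), 4 glutamate receptor (GLR) transcripts and 2 potassium channel transcripts of the TPK type. The set is therefore made up mostly of aquaporins (56 of 62), which are water and solute channels and not ion channels in the strict sense, and it is named by class below.

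Aquaporins form membrane pores that let water and small uncharged molecules pass along their gradients. PIPs sit mainly in the plasma membrane and TIPs mainly in the membrane of the vacuole, so that the former govern water flow into and between root cells and the latter the exchange with the vacuole. NIPs carry metalloids such as silicic acid and arsenite, and SIPs lie mostly in internal membranes. TPK proteins are potassium channels of the vacuolar membrane, and plant GLRs are cation channels related to the ionotropic glutamate receptors of animals. In roots, aquaporins are best known for regulating radial water uptake where cell walls are sealed by barriers.

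Roots of the super-hybrid Xieyou 9308, its maternal parent Xieqingzao B and its paternal parent R9308 were sampled at 2 stages, tillering and heading. All plants were raised in a field nursery and then grown on floating supports in nutrient solution. RNA-Seq of poly-A RNA gave 2 libraries for each of the 6 groups of genotype and stage, 12 in all. The labels name 2 roots per genotype and stage and do not say whether these came from separate plants, so the p-values measure the spread between those samples. Whole roots were sequenced, and fewer cells of a type cannot be told apart from less RNA per cell.

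Between 8209696 and 15830233 counts were assigned per library. R9308 tillering replicate 1 stood apart, since the 121 transcripts of the photosynthesis terms summed to 13300 RPKM (counts scaled to transcript length and library total) in it and to 470 to 1360 in the other libraries (its part in the R9308 tillering values is given below). Of the root markers, the silicon transporters Low silicon rice 1 and 2 were found in every library. Both were higher at heading in all libraries, at 59.6 to 196 RPKM at tillering and 413 to 934 at heading for the first, and at 24.9 to 79.5, then 226 to 734 for the second. The locus Os02t0620500 (similar to an ammonium transporter) ranged from 0 to 1.77 RPKM at tillering and from 3.73 to 21.7 at heading, and Os02t0112100 (annotated as similar to BCH2) from 0 to 13.6, then from 16.4 to 197. The markers named so far were thus higher at heading in all libraries. The loci Os03t0667500 (metal transport protein) and Os07t0684900 (homeodomain-like protein) overlapped between stages. The former was at 0.607 to 6.20 RPKM at tillering and 2.38 to 27.0 at heading. The latter was at 5.32 to 37.3 RPKM at tillering and 3.42 to 24.3 at heading.

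Of the 62 transcripts, 58 were detected (1 count or more over the 12 libraries), 51 reached 10 counts and 45 reached 100. The same 45 passed the filter on low counts in every fit: 12 PIPs, 15 TIPs, 9 NIPs, 3 SIPs, 2 TPKs and 4 GLRs. The 17 that did not pass never exceeded 9 counts in a library, and among them were both TIP loci on chromosome 10 annotated as similar to ZmTIP3-1, the TIP Os04t0527900-01 (similar to ZmTIP3-2) and 2 NIPs annotated as NIP3-3. The mycorrhizal marker NIP Os06t0552700-01 had 6 counts in all. Counts this low do not show that a transcript was absent.

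Expression was concentrated in a few transcripts. The PIPs summed to 1469 RPKM on average over the 12 libraries, the TIPs to 882, the NIPs to 446, the SIPs to 51.0, the TPKs to 24.0 and the GLRs to 11.4. The most abundant were the PIP Os04t0559700-01 (chromosome 4), with a mean of 448 RPKM and rank 118 among all transcripts, and the NIP Os02t0745100-01 (chromosome 2), annotated as the silicon influx transporter Low silicon rice 1, with 391 RPKM and rank 143. They were followed by the TIP Os03t0146100-02 (chromosome 3), annotated as tonoplast water channel, with 334 RPKM. A single transcript thus held most of the NIP signal, whereas the PIP and TIP sums were spread over several loci.

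**Figure D1:**
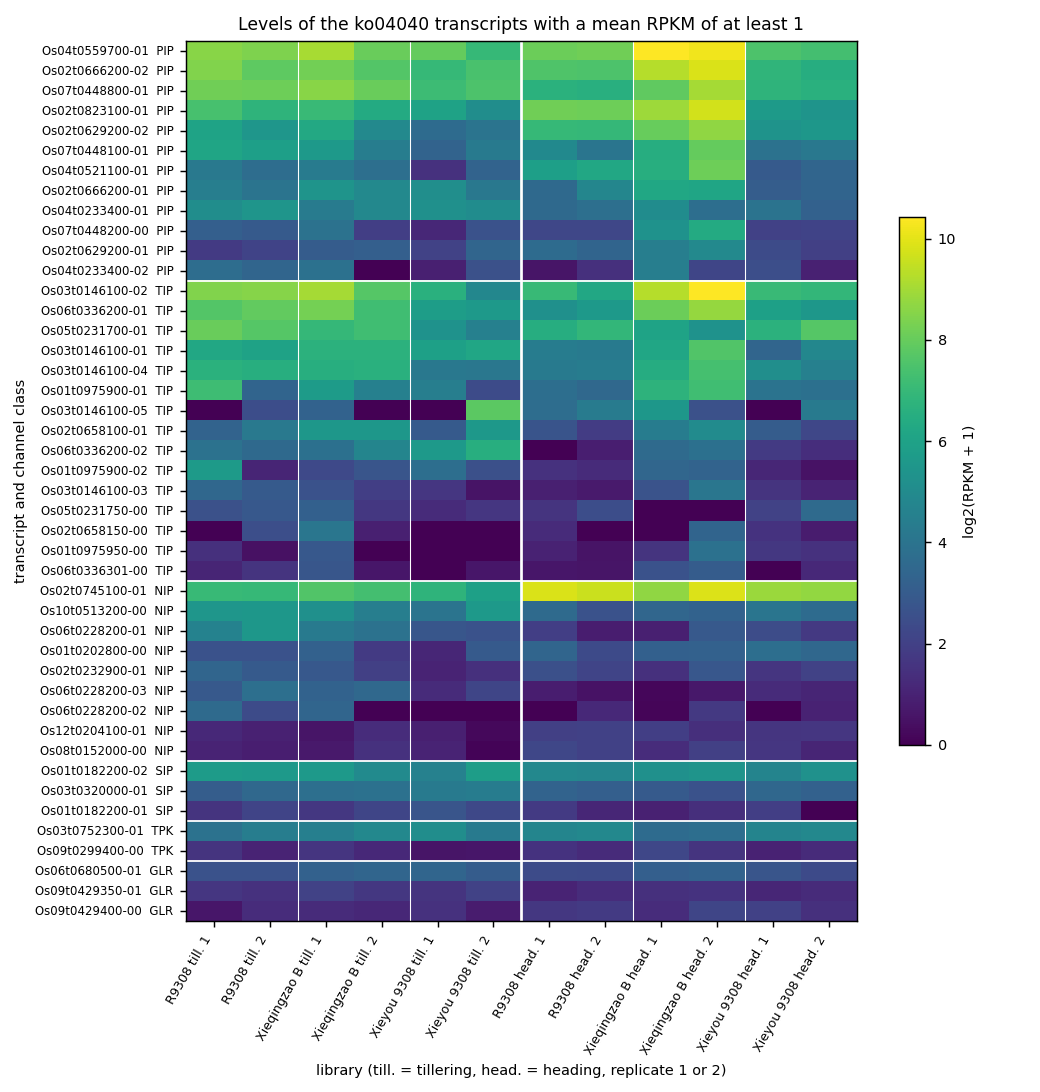
Levels of the 44 transcripts with a mean of at least 1 RPKM (rows, grouped by channel class and ordered by mean) in the 12 libraries (columns), as log2(RPKM + 1). In 11 of the 12 PIP rows the group mean was highest in Xieqingzao B at heading, and the NIP Os02t0745100-01 was higher in all heading libraries than in all tillering libraries.

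The share of all counts that fell on the 62 transcripts differed between groups. It was 0.613% and 0.969% in the Xieqingzao B heading libraries and 0.153% to 0.155% in those of the hybrid at tillering. R9308 libraries lay between 0.294% and 0.354% at both stages, hybrid heading libraries at 0.185% and 0.189%, and Xieqingzao B tillering libraries at 0.386% and 0.247%. Xieqingzao B heading was thus the highest group and the hybrid the lowest at each stage, with no overlap between the hybrid and the parents.

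PIPs had the largest sums. At heading their summed level was 3983 ± 892 RPKM (SD, n = 2) in Xieqingzao B, 1105 ± 9.36 in R9308 and 519 ± 48.7 in the hybrid, so that the mean in Xieqingzao B was 3.60 times that in R9308 and 7.67 times that in the hybrid. The replicates of Xieqingzao B gave 3352 and 4613 RPKM, and both lay far above the other groups. At tillering the parents were at 1286 ± 200 (R9308) and 1269 ± 455 (Xieqingzao B) and the hybrid at 655 ± 37.2. R9308 replicate 2 alone, without the library high in photosynthesis transcripts, was at 1145.

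TIPs followed the same order in part. At heading their sum was 1886 ± 808 RPKM (SD, n = 2) in Xieqingzao B, with 1314 and 2457 in its replicates, against 330 ± 6.69 in R9308 and 424 ± 66.5 in the hybrid. At tillering it was 1134 ± 142, 1058 ± 357 and 462 ± 145 in R9308, Xieqingzao B and the hybrid, with 1033 in R9308 replicate 2 alone. NIP sums were higher at heading than at tillering in each genotype, R9308 being at 238 ± 10.0, then 871 ± 104 RPKM, Xieqingzao B at 249 ± 52.8, then 705 ± 377, and the hybrid at 130.04 ± 6.91, then 480.3 ± 35.4. The silicon influx transporter Os02t0745100-01 held most of these sums at heading. Without it the sum of the other 12 NIPs was 111 ± 12.5, then 29.0 ± 10.6 RPKM in R9308, and 72.4 ± 25.7, then 31.5 ± 8.46 in Xieqingzao B, both lower at heading without overlap. In the hybrid it was 46.3 ± 27.3, then 36.8 ± 5.33, with overlapping libraries. These sums are descriptions, and tests were made per transcript.

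**Figure D2:**
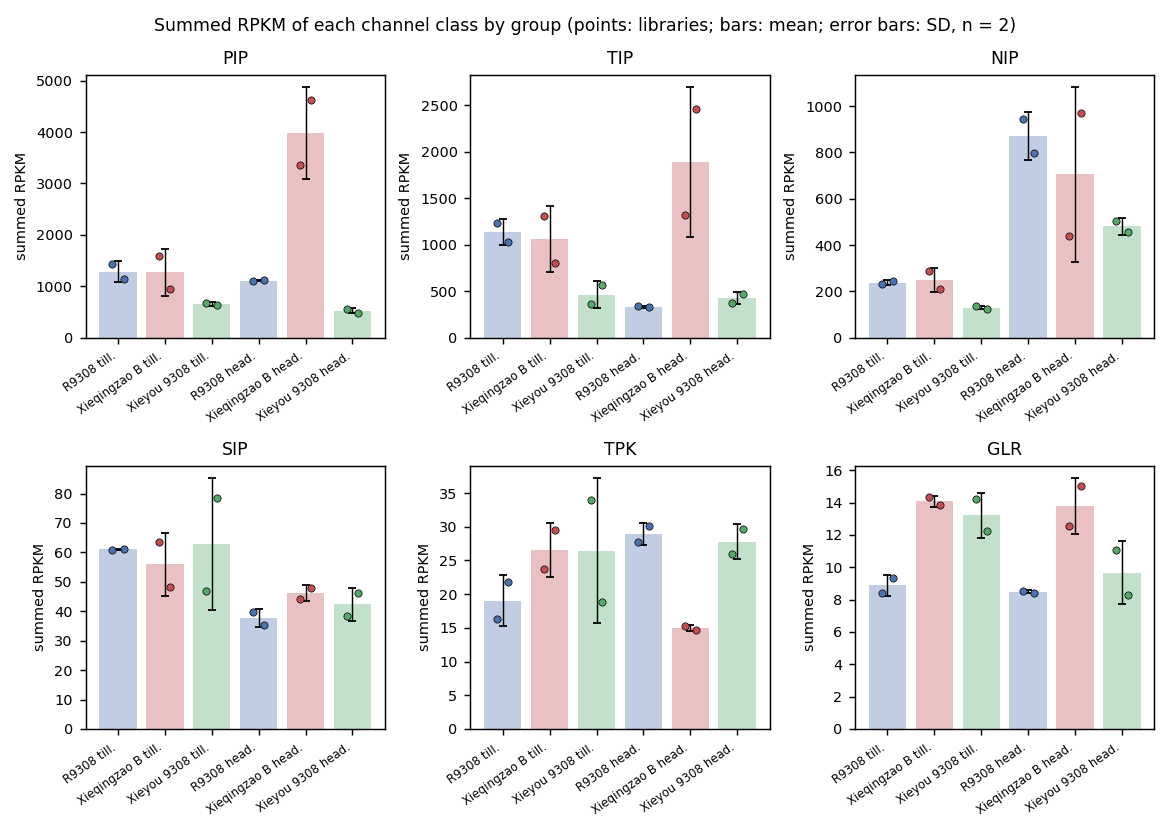
Summed RPKM of each channel class (1 panel each) in the 6 groups; points are libraries, bars the mean and error bars the SD (n = 2). PIP and TIP sums are highest in Xieqingzao B at heading, NIP sums, of which Os02t0745100-01 holds most, are higher at heading in every genotype, and the TPK sum is lowest in Xieqingzao B at heading, at 15.01 RPKM.

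Genotypes were compared separately at each stage by the quasi-likelihood test of edgeR, and a transcript was called at a Benjamini-Hochberg adjusted p of at most 0.05 over all transcripts and a change of at least 2-fold. At heading, the hybrid differed from Xieqingzao B in 15 of the 45 tested transcripts, 14 lower and 1 higher. Over all 27187 transcripts tested, 8.1% were called, 2.75% being lower and 5.35% higher. The 14 lower transcripts were 9 PIPs and 5 TIPs, and the higher one was a TPK. The median log2 fold change of the 45 was -1.67, compared with -0.03 over all transcripts.

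Every one of the 12 tested PIPs had a lower estimate in the hybrid than in Xieqingzao B, from -4.35 to -0.82 on the log2 scale, and in 10 of them the libraries did not overlap. Over all transcripts, 37.7% were lower without overlap. The most abundant PIP, Os04t0559700-01, was at 1383 and 1193 RPKM in Xieqingzao B, at 269.5 and 289 in R9308 and at 183 and 158 in the hybrid. Both Xieqingzao B libraries lay above all others, with no overlap among the 3 genotypes. Its log2 fold change of the hybrid over Xieqingzao B was -2.78 ± 0.21 (SE; edgeR adjusted p = 0.00734).

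The steepest fall belonged to Os04t0521100-01 (chromosome 4, annotated as a major intrinsic protein), at 91.4 and 276 RPKM in Xieqingzao B and at 6.83 and 9.56 in the hybrid. R9308 was between them, at 58.7 and 74.6 RPKM. The hybrid fell by 4.35 ± 0.59 on the log2 scale relative to Xieqingzao B (edgeR adjusted p = 0.0196). Next came Os07t0448200-00 (chromosome 7), at 39.5 and 82.1 RPKM in Xieqingzao B and at 3.04 and 3.29 in the hybrid, with R9308 at 3.66 and 3.71. Both Xieqingzao B libraries were high, and the other 4 lay within 3.04 to 3.71 RPKM.

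The remaining called PIPs were both transcripts of Os02t0629200 (the second similar to barley HvPIP2;1), both of Os02t0666200 (annotated as aquaporin), Os02t0823100-01 (similar to maize ZmPIP1-5) and Os07t0448100-01 (similar to ZmPIP2-6), with log2 fold changes of -3.73 to -2.67. The 3 PIP transcripts without a call were Os07t0448800-01 and both transcripts of Os04t0233400. Os07t0448800-01 was at 238 and 520.5 RPKM in Xieqingzao B and at 109.97 and 97.0 in the hybrid (log2 fold change -1.74 ± 0.38, edgeR adjusted p = 0.0511), a difference without overlap that did not pass the test.

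**Figure D3:**
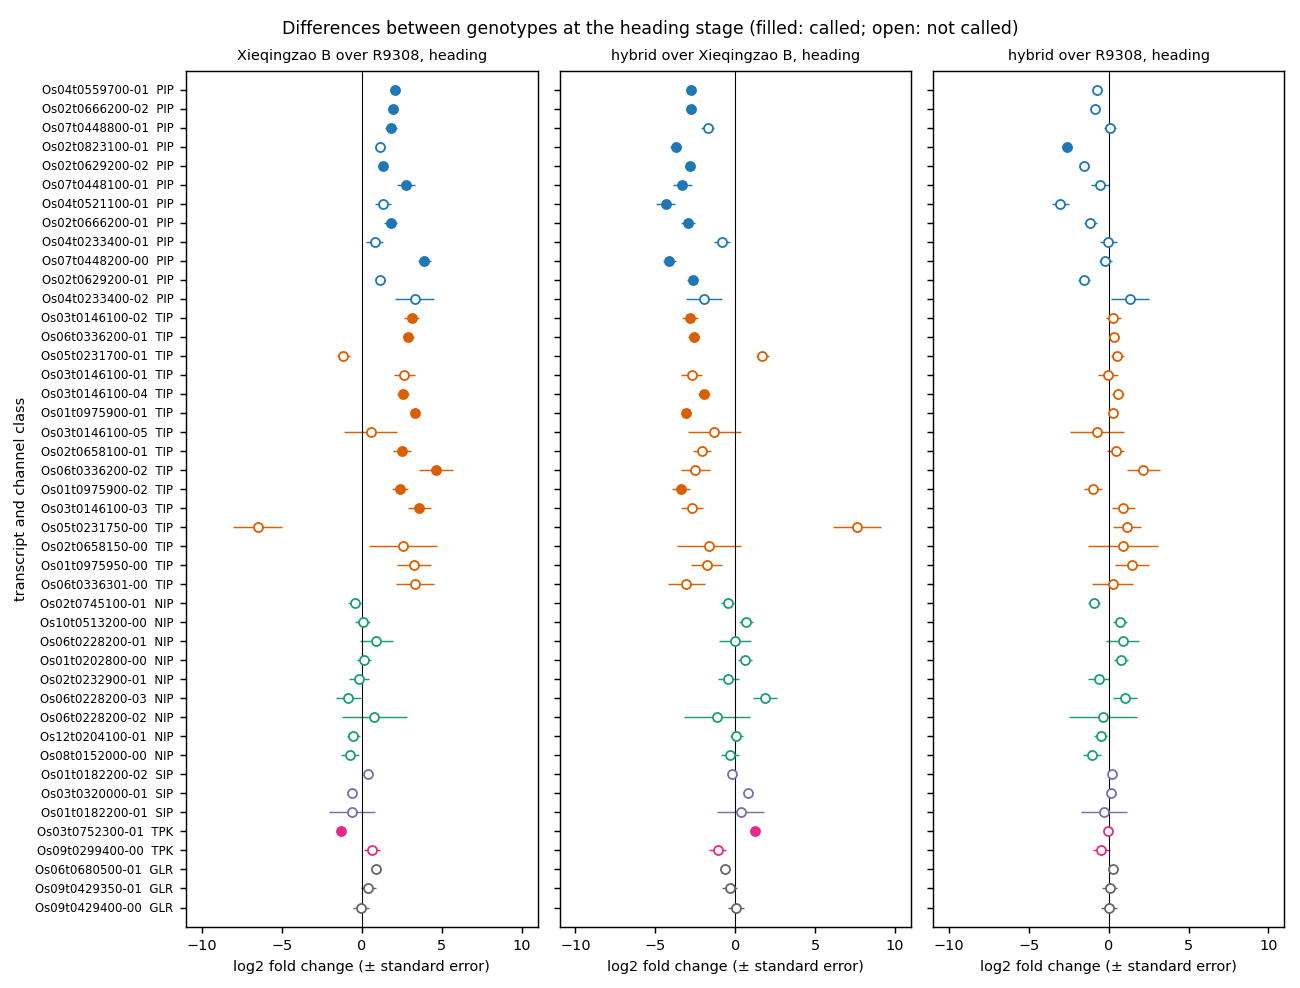
Log2 fold changes (± standard error) at heading for the 44 transcripts with a mean of at least 1 RPKM, coloured by class, in 3 comparisons of genotypes; filled points were called. PIPs lie to the right in Xieqingzao B over R9308 and to the left in the hybrid over Xieqingzao B, while the TIP Os05t0231700-01 and the TPK Os03t0752300-01 point the other way.

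Among TIPs, 5 were called lower in the hybrid than in Xieqingzao B. Os03t0146100-02, the tonoplast water channel, was at 612 and 1364 RPKM in Xieqingzao B, at 135 and 118 in the hybrid and at 131 and 76.3 in R9308. The Xieqingzao B libraries were above all others, and the hybrid and R9308 libraries overlapped. The fold change of the hybrid over Xieqingzao B was -2.83 ± 0.48 on the log2 scale (edgeR adjusted p = 0.0296). A second transcript of that locus (Os03t0146100-04), Os06t0336200-01 (delta-tonoplast intrinsic protein) and both transcripts of Os01t0975900 (similar to maize ZmTIP1-2) were also lower, by log2 changes of -3.39 to -1.98.

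The TIP Os05t0231700-01 (chromosome 5, similar to maize ZmTIP4-2) went against its class. At heading it was at 64.7 and 38.4 RPKM in Xieqingzao B, at 102 and 203 in the hybrid and at 90.6 and 120.2 in R9308. Xieqingzao B was the lowest genotype without overlap, and the hybrid and R9308 overlapped. The differences did not pass the test, with a log2 fold change of 1.69 ± 0.42 for the hybrid over Xieqingzao B (edgeR adjusted p = 0.0651) and -1.15 ± 0.41 for Xieqingzao B over R9308 (adjusted p = 0.139).

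The potassium channel transcript Os03t0752300-01 (chromosome 3, similar to K+ channel protein) was the one member called higher in the hybrid. It was at 11.6 and 12.7 RPKM in Xieqingzao B, at 24.9 and 28.3 in the hybrid and at 25.9 and 28.6 in R9308. Xieqingzao B was low in both libraries, and the other genotypes overlapped. The log2 fold change was 1.26 ± 0.17 for the hybrid over Xieqingzao B (edgeR adjusted p = 0.0196) and -1.29 ± 0.17 for Xieqingzao B over R9308 (adjusted p = 0.0126). Both comparisons share the Xieqingzao B libraries.

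The parents differed at heading in 16 of the 45 transcripts, 15 higher and 1 lower in Xieqingzao B than in R9308. Over all transcripts, 10.8% were called, 4.4% being higher and 6.36% lower. The higher ones were 7 PIPs and 8 TIPs, and the lower one was the TPK. The TIPs were both transcripts of Os01t0975900 and of Os06t0336200, 3 of Os03t0146100 (-02, -03 and -04) and Os02t0658100-01, with estimates of 2.40 to 4.66 on the log2 scale. The median log2 fold change of the 45 was 1.11, against 0.04 over all transcripts. All 12 PIPs had a higher estimate in Xieqingzao B, and 11 did not overlap (34.9% over all transcripts). Several of the 12 share a locus, and all rest on the same 2 Xieqingzao B libraries, so the estimates are not independent. Between these libraries, members with a mean of at least 1 RPKM had a median absolute difference in log2(RPKM + 1) of 0.68. It was 0.34 over all such transcripts. The members' median difference of replicate 1 from replicate 2 was -0.50.

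For Os04t0559700-01 the log2 fold change of Xieqingzao B over R9308 was 2.08 ± 0.21 (edgeR adjusted p = 0.00661) and for Os07t0448200-00 it was 3.91 ± 0.41 (adjusted p = 0.00759). Among TIPs, Os01t0975900-01 was at 106 and 151 RPKM in Xieqingzao B and at 12.6 and 10.4 in R9308, with the hybrid at 14.6 and 13.3. Both Xieqingzao B libraries were far above the rest, and the log2 fold change of Xieqingzao B over R9308 was 3.35 ± 0.25 (adjusted p = 0.00343). Os02t0823100-01 was at 484 and 851 RPKM in Xieqingzao B and at 287 and 281 in R9308, a log2 fold change of 1.11 ± 0.31 that was not called (adjusted p = 0.0774).

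No NIP, SIP or GLR was called between genotypes at heading. The medians of the 9 NIPs were -0.03 (hybrid over Xieqingzao B) and -0.19 (Xieqingzao B over R9308). The most abundant SIP, Os01t0182200-02 (chromosome 1, similar to maize ZmSIP1-2), was at 36.6 and 41.2 RPKM in Xieqingzao B, at 28.4 and 26.3 in R9308 and at 25.3 and 37.7 in the hybrid. The parents did not overlap, but the estimate of 0.38 ± 0.23 did not pass (edgeR adjusted p = 0.339). The GLR Os06t0680500-01 (chromosome 6, similar to Glutamate receptor 3.4) was at 7.94 and 8.67 RPKM in Xieqingzao B, at 4.27 and 4.11 in R9308 and at 5.73 and 4.10 in the hybrid. Xieqingzao B was above both others without overlap, but its log2 fold change over R9308 of 0.86 ± 0.25 did not pass (edgeR adjusted p = 0.0848).

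The call counts at heading depended on single libraries. Without either hybrid library no transcript was called between the hybrid and Xieqingzao B, and without R9308 replicate 2 there were 9. Between the parents, 1 and 5 were called without R9308 replicates 1 and 2, 10 without Xieqingzao B replicate 2 and 8 without either hybrid library. The directions of all called transcripts were the same in each of those fits.

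Between the hybrid and R9308 at heading a single transcript was called, lower in the hybrid, against 0.886% over all transcripts (0.173% lower). This was the PIP Os02t0823100-01, at 50.03 and 41.5 RPKM in the hybrid and at 287 and 281 in R9308. The groups lay far apart, with a log2 fold change of -2.62 ± 0.32 (edgeR adjusted p = 0.0414). Os04t0521100-01, at 6.83 and 9.56 RPKM in the hybrid and at 58.7 and 74.6 in R9308, had the more negative estimate of -3.02 ± 0.56 but a larger error and no call (adjusted p = 0.0942).

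PIPs and TIPs leaned in opposite directions in that comparison. Of the PIPs, 10 of 12 had negative estimates (median -0.77), whereas 12 of 15 TIPs had positive ones (median 0.44), none of them called. Over all transcripts 13617 estimates were positive and 13570 negative (median 0.001). Without overlap, 8 PIPs were lower in the hybrid (26.8% of all transcripts) and 5 TIPs higher (26.3%). Several of these transcripts share a locus, so they are not independent. The count fell to 0 when any R9308 or hybrid heading library was left out and was 3 without either Xieqingzao B library.

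**Figure D4:**
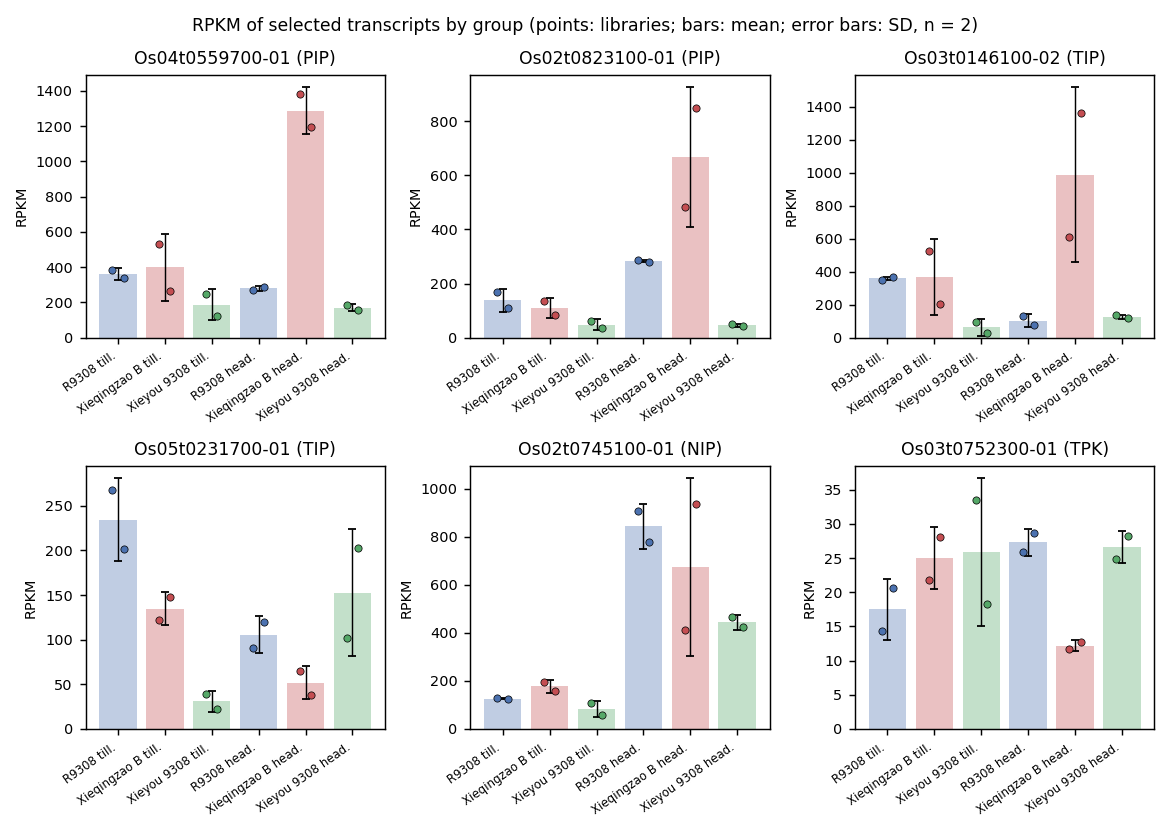
RPKM of 6 transcripts by group; points are libraries, bars the mean and error bars the SD (n = 2). The PIP Os04t0559700-01 reaches 1383 and 1193 RPKM in Xieqingzao B at heading, the TIP Os05t0231700-01 and the TPK Os03t0752300-01 are lowest there among the heading groups, and the NIP Os02t0745100-01 is higher at heading in every genotype.

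At tillering no member was called in any comparison of genotypes. Over all 28434 transcripts, 0.0106% were called for the hybrid over R9308, 0.0% for the hybrid over Xieqingzao B and 0.0246% for Xieqingzao B over R9308. At an unadjusted p under 0.05 there were 16, 13 and 1 members, against 17.3%, 8.57% and 9.01% of all transcripts, and DESeq2 called 11, 7 and 0, against 9.18%, 3.09% and 4.41% of all transcripts. The counts of 0 were unchanged without R9308 tillering replicate 1.

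The estimates nevertheless leaned towards lower levels in the hybrid. The median log2 fold change of the 45 was -1.15 over R9308 and -1.09 over Xieqingzao B, with 0.00 and 0.05 over all transcripts. Without R9308 replicate 1 the first was -0.82, with 0.10 over all transcripts. Both hybrid libraries lay below both R9308 libraries in 24 members and below both Xieqingzao B libraries in 22 (25.3% and 19.4% of all transcripts). Against R9308 replicate 2 alone, both hybrid libraries were lower in 26 members (32% of all transcripts). The 2 comparisons share the hybrid libraries. The smallest p among lower members belonged to the TIP Os03t0146100-04, at 16.9 and 16.8 RPKM in the hybrid, 99.9 and 92.7 in R9308 and 93.4 and 96.6 in Xieqingzao B. All 4 parental libraries were above both hybrid libraries, and the log2 fold changes were -2.57 ± 0.27 (edgeR adjusted p = 0.151) and -2.51 ± 0.27 (adjusted p = 0.292). This transcript held 9.67% and 7.19% of the counts of its locus in the hybrid and 12.9% to 23.9% in the parents. The sum over the 5 transcripts of the locus differed less, though without overlap. It was 175 and 340 RPKM in the hybrid, 537 and 534 in R9308 and 738 and 406 in Xieqingzao B.

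The smallest p among higher members belonged in both comparisons to the TIP Os06t0336200-02, with estimates of 2.44 ± 0.49 over R9308 (edgeR adjusted p = 0.165) and 1.83 ± 0.48 over Xieqingzao B (adjusted p = 0.423). The sum of its locus was nevertheless lower in the hybrid, at 103 and 143 RPKM. It was 216 and 255 in R9308 and 313 and 174 in Xieqingzao B. Between the parents the smallest p among higher members belonged to the GLR Os06t0680500-01 (0.77 ± 0.32, adjusted p = 0.582) and, among members lower in Xieqingzao B, to the NIP Os06t0228200-01 (-1.08 ± 0.42, adjusted p = 0.529).

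Counted by group means, the hybrid was below both parents at tillering in 30 of the 44 members with a mean of at least 1 RPKM (68.2%, against 35.5% of all such transcripts). These were 9 of 12 PIPs, 11 of 15 TIPs, 8 of 9 NIPs, 1 SIP and 1 TPK. With R9308 replicate 2 in place of the R9308 mean the number was 29 (35.1% of all such transcripts). At heading the number was 19 (43.2%, against 35%), of which 10 were PIPs. Group means of 2 libraries carry no test here.

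Between stages, the silicon influx transporter Os02t0745100-01 was called in R9308 and in the hybrid. In R9308 it was at 128 and 125 RPKM at tillering and at 908 and 777 at heading. In the hybrid the values were 108 and 59.6, then 465 and 422. Heading libraries were above tillering libraries in both genotypes, with log2 fold changes of 2.81 ± 0.47 (edgeR adjusted p = 0.0413) and 2.51 ± 0.46 (adjusted p = 0.0448). In Xieqingzao B it was at 196 and 158, then 413 and 934 RPKM, again without overlap but with unequal heading replicates and no call (log2 fold change 1.89 ± 0.45, adjusted p = 0.0877).

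In R9308, 4 of the 45 were called between stages (1.2% over all 29560 transcripts), 1 higher (0.47%) and 3 lower (0.734%) at heading. The lower ones were the TIPs Os03t0146100-04, from 99.9 and 92.7 to 18.5 and 20.1 RPKM, and Os06t0336200-01, from 201 and 245 to 36.5 and 49.7, and the NIP Os06t0228200-03 (chromosome 6), from 6.498 and 13.0 to 0.802 and 0.433. Heading libraries were below tillering libraries in all 3. Their log2 fold changes were -2.25 ± 0.34, -2.31 ± 0.40 and -3.91 ± 0.74 (edgeR adjusted p = 0.0372, 0.0436 and 0.0495). The other transcripts of Os06t0228200, -01 and -02, were not called between stages in any genotype. That does not show that they were unchanged. In R9308 the transcript -01 was at 23.4 and 44.4, then 2.85 and 0.806 RPKM. The transcript -02 was at 11.3 and 4.24, then 0 and 1.27 RPKM. Both were lower at heading without overlap.

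The stage calls in R9308 rested on adjusted p-values close to the threshold. Without R9308 tillering replicate 1, the library high in photosynthesis transcripts, none of the 4 was called. The count was also 0 without either R9308 heading library, either Xieqingzao B tillering library or either hybrid heading library, 2 without R9308 tillering replicate 2 or either Xieqingzao B heading library, and 8 and 9 without hybrid tillering replicates 1 and 2.

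In Xieqingzao B no member was called between stages (0.088% over all transcripts), with 16 at an unadjusted p under 0.05 (19.6% of all transcripts) and 14 called by DESeq2 (9.79% of all transcripts). Without either hybrid tillering library the edgeR count was 7. The smallest p-values belonged to the NIP Os06t0228200-03, at 8.60 and 10.6 RPKM at tillering and at 0.146 and 0.609 at heading (log2 fold change -4.71 ± 0.77, edgeR adjusted p = 0.0562), and to the PIP Os02t0629200-02, at 77.5 and 29.5, then 260.0 and 415 RPKM (2.61 ± 0.46, adjusted p = 0.0584). Neither overlapped between stages. The PIP estimates were mostly positive, 11 of 12, with a median of 1.65. Os04t0559700-01 was at 533 and 266 RPKM at tillering and at 1383 and 1193 at heading, without overlap (log2 fold change 1.64 ± 0.43, edgeR adjusted p = 0.104). In R9308 the same PIP was at 386 and 336, then at 269.5 and 289 RPKM.

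In the hybrid, 3 members were called between stages (1.68% over all transcripts), 2 higher (1.08%) and 1 lower (0.595%) at heading. Beside the silicon transporter, the TIP Os05t0231700-01 rose from 39.3 and 22.5 to 102 and 203 RPKM, with a log2 fold change of 2.41 ± 0.45 (edgeR adjusted p = 0.0450). In the parents it was at 267 and 202, then 90.6 and 120.2 (R9308), and at 122 and 148, then 64.7 and 38.4 RPKM (Xieqingzao B). The heading values were thus the higher ones in the hybrid and the lower ones in both parents. The lower member was Os06t0336200-02, described below among transcripts of shared loci.

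That count in the hybrid was 6 without hybrid tillering replicate 1 and 1 without either Xieqingzao B heading library. It was 0 without any other single library.

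The change of each genotype difference between stages was tested directly as an interaction, and no member was called in any of the 3 comparisons (0.0% over all transcripts in each). At an unadjusted p under 0.05 there were 9 members for the hybrid over R9308, 14 for the hybrid over Xieqingzao B and 18 for Xieqingzao B over R9308 (15.8%, 15.2% and 12.4% of all transcripts), and DESeq2 called 5, 6 and 10 (5.96%, 5.71% and 4.17% of all transcripts). The calls at heading and their lack at tillering therefore do not show that the differences changed between stages. For Os05t0231700-01 the interaction of the hybrid over Xieqingzao B was 3.84 ± 0.63 on the log2 scale (edgeR adjusted p = 0.123). The smallest p among negative estimates there belonged to the PIP Os02t0666200-02 (-1.996 ± 0.47, adjusted p = 0.159). For the other 2 comparisons the smallest p of the positive estimates belonged to Os03t0146100-04, at 3.14 ± 0.47 for the hybrid over R9308 (adjusted p = 0.125) and 2.59 ± 0.46 for Xieqingzao B over R9308 (adjusted p = 0.164). Those of the negative estimates belonged to the PIP Os02t0629200-01 (-2.64 ± 0.74, adjusted p = 0.182) and the TPK Os03t0752300-01 (-1.78 ± 0.48, adjusted p = 0.227). The transcript Os03t0146100-04 is 1 of 5 of its locus, and how reads were divided among them was not tested. Without hybrid tillering replicate 1, 3 and 5 members were called for the hybrid over R9308 and over Xieqingzao B. Without R9308 tillering replicate 2, 1 was called for the hybrid over R9308 and 1 for Xieqingzao B over R9308.

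Some loci were annotated with several transcripts, among which RSEM divides reads that fit more than one. At the delta-TIP locus Os06t0336200, the transcript Os06t0336200-02 took 44.0% and 62.5% of the counts in the hybrid at tillering. It took 3.72% to 13.2% in the parents at that stage and 0% to 3.45% at heading in all genotypes, so that the hybrid tillering libraries stood alone. Its RPKM was 48.5 and 93.4 in the hybrid at tillering and 2.40 and 1.56 at heading, a log2 fold change of -5.01 ± 0.85 (edgeR adjusted p = 0.0410). The other transcript of the locus was at 54.6 and 49.4, then 60.5 and 45.6 RPKM. The called fall was thus that of the second transcript, and Os06t0336200-01 had overlapping values at both stages. The sum of the locus in the hybrid was also lower at heading without overlap, at 103 and 143, then 62.9 and 47.2 RPKM.

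At the TIP locus Os01t0975900, the transcript Os01t0975900-02 likewise held 41.4% and 57.4% of the counts in the hybrid at tillering and 3.52% to 28.6% in the other groups. The sum of its locus in R9308 at tillering was 196 RPKM in replicate 1 and 10.3 in replicate 2; the former is the library high in photosynthesis transcripts. At the tonoplast water channel locus Os03t0146100, the transcript Os03t0146100-05 held 50.3% of the counts in hybrid tillering replicate 2 (1561 counts) and 0% in replicate 1. In the other groups it held 0% to 8.05%. The replicates of the hybrid were therefore not alike at this locus, and how the reads were divided was not tested.

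**Figure D5:**
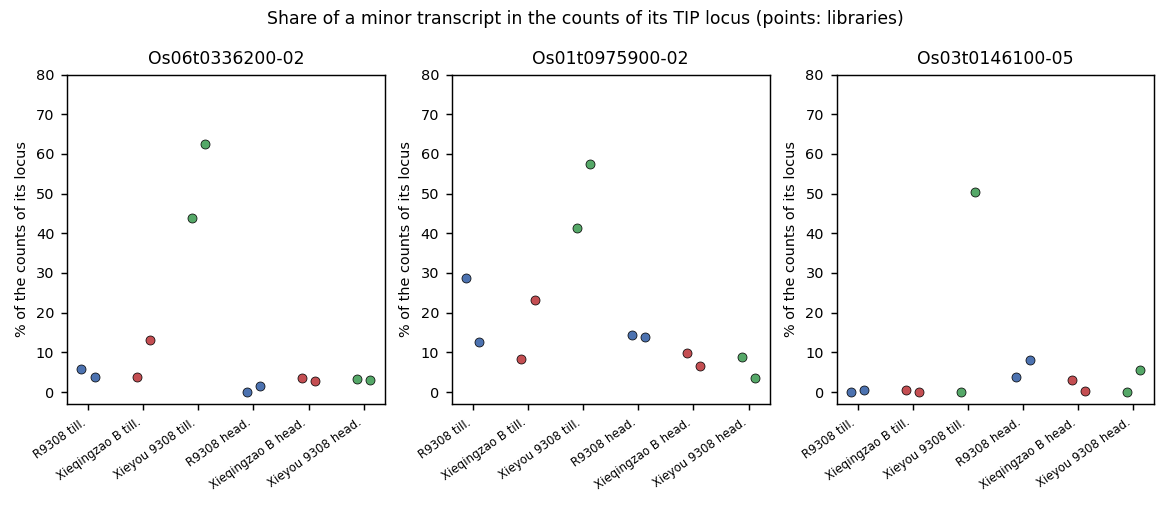
Share of a minor transcript in the counts of its TIP locus, in percent, for 3 loci; points are libraries. The hybrid tillering libraries are the highest for Os06t0336200-02 (44.0% and 62.5%) and Os01t0975900-02 (41.4% and 57.4%), and for Os03t0146100-05 only 1 of the 2 is high.

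Among the members, 12 had no protein name in the annotation, being listed as hypothetical or non-protein-coding, and 7 of them were tested. Several bear identifiers next to those of an aquaporin locus, such as Os05t0231750-00 beside Os05t0231700. That transcript had 0 counts in both Xieqingzao B heading libraries, 10 and 34 in the hybrid and 6 and 15 in R9308. The direction was that of its neighbour, but it was not called. The protocol does not describe a strand-marking kit, so reads of overlapping models cannot be told apart and the values of unnamed models are uncertain.

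A further list of 105 transcripts had channel annotations but not the KEGG term: potassium, chloride, cyclic nucleotide-gated and mechanosensitive channels, further glutamate receptors and the like. Its text search also took in 10 nuclear pore proteins, which altered no count of calls. At heading, 83 of the list were tested. Between the hybrid and Xieqingzao B, 4 were higher and 4 lower, and between Xieqingzao B and R9308, 5 were higher and 6 lower. Over all transcripts 8.1% and 10.8% were called in these comparisons, and the counts of the list lay near those shares. The medians were -0.04 in both, against -1.67 and 1.11 for the members.

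Glutamate receptors of that list were called in both directions. Between the hybrid and Xieqingzao B, 2 were higher and 3 lower in the hybrid, and between the parents 3 were higher and 4 lower in Xieqingzao B. Among the latter, the transcripts -01 and -02 of Os06t0190800 are counted separately. Os07t0103100-01 was lower in the hybrid than in Xieqingzao B (log2 fold change -1.65 ± 0.18, edgeR adjusted p = 0.0121) and higher in Xieqingzao B than in R9308 (1.42 ± 0.17, adjusted p = 0.0106). Os06t0190500-01 went the other way, being higher in the hybrid than in Xieqingzao B (1.87 ± 0.38, edgeR adjusted p = 0.0436) and lower in Xieqingzao B than in R9308 (-2.56 ± 0.38, adjusted p = 0.0162), and so did Os06t0190800-01. Os08t0254600-01, similar to a cyclic nucleotide-gated channel, was the one listed transcript called between the hybrid and R9308 at heading, being lower in the hybrid (-2.42 ± 0.29, adjusted p = 0.0405). It was higher at heading than at tillering in R9308 (5.14 ± 0.72, adjusted p = 0.0372) and in the hybrid (3.81 ± 0.70, adjusted p = 0.0448). Os04t0445000-01, similar to the outward potassium channel SKOR, was also higher at heading in R9308 (2.48 ± 0.46, adjusted p = 0.0484).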

How the data were processed

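Bases were called with the Illumina pipeline (CASAVA 1.8). The authors trimmed and filtered paired reads and used RSEM 1.1.11 to assign them to transcripts of the Nipponbare reference (IRGSP build 5.0). They deposited whole-number counts and RPKM for each of the 12 libraries. Recomputing RPKM from counts, length and library total gave 504972 of 504972 deposited RPKM values within a relative tolerance of 1e-05. A further 18 deposited columns hold the log2 fold changes, p-values and false discovery rates of the authors' own genotype comparisons and were not used. No row lacked a transcript name.

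Counts were tested with edgeR 4.0.16 (R 4.3.3): filterByExpr, TMM scaling, quasi-likelihood fits over the 6 libraries of a stage for genotypes and over all 12 for stages and interactions. Calls needed a Benjamini-Hochberg adjusted p of at most 0.05 over all transcripts tested and a log2 change of 1 or more in either direction. The standard error is the absolute log2 fold change divided by the square root of F. The procedure was tested on data simulated with a common spread for all transcripts of a stage. Such data do not measure how reliable the calls are here.

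Members, lists and tests were chosen with earlier results of these data known. Named transcripts are the called members without overlap between groups, the most abundant member of each class, those with the smallest p in each direction where none was called, the loci Os02t0745100 and Os06t0228200, and others chosen after their values were seen (Os05t0231700-01, Os04t0521100-01, Os07t0448800-01, Os02t0823100-01 and Os06t0680500-01 in comparisons without a call, and the transcripts of shared loci and without a protein name). Alternatives were DESeq2 1.42.0, scaling by library size, no filter, a replicate block, 1 fit over all libraries, leaving out each library, and counts summed over loci. The NIP sum without Os02t0745100-01 and the tillering values without R9308 replicate 1 were added after seeing the data. DESeq2 shares are over transcripts with an adjusted p. Chromosomes are those in the transcript identifiers; coordinates and sequences were not used here.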

Additional observations from a re-analysis of the deposited data

How the results depend on the processing

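DESeq2 and scaling by library size alone kept all 39 calls, no filter kept 35, the fit over all 12 libraries 20 of 32 and the replicate block 13; none of the 63 transcript changes tested under the alternatives changed direction. Counts moved beyond 1.5 times as follows, and the cause was not tested. Among the alternatives, shares of all transcripts are given for DESeq2 only. Counts of members under the others, here and elsewhere in the text, therefore cannot be set against the share of all transcripts called. DESeq2 called 11 (hybrid over R9308) and 7 (hybrid over Xieqingzao B) at tillering, 4 for the hybrid over R9308 at heading (5.15% of all transcripts), 14, 14 and 9 between stages in R9308, Xieqingzao B and the hybrid (10.0%, 9.79% and 13.7%), and 5, 6 and 10 interactions (hybrid over R9308, hybrid over Xieqingzao B, Xieqingzao B over R9308). The fit over all 12 libraries called 4 and 1 at tillering (hybrid over R9308, hybrid over Xieqingzao B) and 0 for the hybrid over R9308 at heading. Counts summed over loci, chosen after seeing the data, gave 3 for the hybrid over R9308 at heading and 6 between stages in Xieqingzao B.

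Deviations of same-numbered libraries of a stage from their group means had correlations from -0.41 to 0.03. The most negative were -0.41 for Xieqingzao B and the hybrid at tillering and -0.24 for the parents at heading. With 2 libraries per group, crossing the numbers of a group reverses the sign. Whether such libraries shared a source of variation was not tested. With the replicate block, heading counts were 0 (hybrid over R9308), 7 (hybrid over Xieqingzao B) and 6 (Xieqingzao B over R9308), and those between stages 0 in R9308 and 0 in the hybrid. Crossing the numbers of Xieqingzao B in the block, also added after seeing the data, gave 0, 18 and 14 at heading and 0 between stages in R9308 and in the hybrid.

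Leaving out each library, which leaves 1 sample in its group that is assumed to vary like the others, gave 0 to 0 calls in each tillering comparison. The ranges were 0 to 3 (hybrid over R9308), 0 to 15 (hybrid over Xieqingzao B) and 1 to 16 (Xieqingzao B over R9308) at heading, 0 to 9 (R9308), 0 to 7 (Xieqingzao B) and 0 to 6 (hybrid) between stages, and 0 to 3, 0 to 5 and 0 to 1 for the interactions. On TMM library sizes the summed RPKM moved by more than 1 SD for PIPs in R9308 at heading (1135), TIPs there (340), GLRs there (8.71), SIPs in R9308 at tillering (61.8) and TPKs in Xieqingzao B at heading (14.1). The order of the genotypes was the same on both scales at both stages for all classes except SIPs. Among SIPs, R9308 and the hybrid changed places at tillering (61.0 and 62.8, then 61.8 and 61.4 RPKM), as did Xieqingzao B and the hybrid at heading (46.1 and 42.3, then 43.4 and 43.7). At this depth (8209696 to 15830233 counts per library), 17 members did not pass the filter on low counts. They were not tested in the main fits, so their differences were not assessed there.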
